A study of Mus musculus with 4 samples.

Results

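Nqo1-negative mature olfactory neurons are the mature odour-sensing neurons of the mouse nose that carried no transcript of Nqo1, the quinone reductase that marks the dorsal zone of the olfactory epithelium. A cell was counted in when it had at least 500 detected genes, at least 2000 unique molecular identifiers (UMIs, the tags that count captured transcripts) and at most 10% of its UMIs from mitochondrial genes. It also needed at least 3 UMIs of Omp (olfactory marker protein, the marker of mature olfactory sensory neurons), at most 2 of Gap43 (growth-associated protein, abundant in immature neurons) and 0 of Nqo1. By this rule 710 cells were members, out of 7798 cells within the limits and 9126 deposited cells. Members were thus chosen by their Omp, Gap43 and Nqo1 counts, and those counts support nothing below. Members just inside the gate were 6 cells with 3 Omp UMIs and 57 with 2 Gap43 UMIs. Just outside it were 59 cells with 2 Omp UMIs, 36 with 3 Gap43 UMIs and 98 with 1 Nqo1 UMI.

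As background, each olfactory sensory neuron expresses a single odorant receptor gene and sends 1 axon to the olfactory bulb, where axons of neurons with the same receptor meet. The epithelium is divided into zones: dorsal neurons express Nqo1 and Acsm4, while ventral and lateral neurons express the adhesion molecule Ncam2 (also called OCAM) and graded levels of Nrp2, a semaphorin receptor. Receptor signalling also sets the level of axon sorting molecules such as Kirrel2 and Kirrel3, and S100a5 and Pcp4l1 are known as genes whose level follows neuronal activity.

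Outbred CD-1 mice gave olfactory epithelium for 4 libraries, 1 for each of the ages P0, P3, P7 and P21 (P for the day after birth), and no treatment or genetic change is named. Cells were freed with papain and loaded as sorted samples on a droplet system; the labels state neither the gate of that sort nor which animals went into each library. Age and library therefore cannot be told apart, ages are compared without a test, and every interval below covers counting error only. By its title, the study is about navigator neurons and the formation of the olfactory map.

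The libraries held 92, 106, 119 and 393 members at P0, P3, P7 and P21, with 456049, 555516, 597343 and 1937582 UMIs in all and medians of 5212, 4069, 4383 and 4680 UMIs per cell. The 607 mature neurons with at least 3 Nqo1 UMIs (153, 110, 126 and 218 cells, called Nqo1-high below) had medians of 4581, 6407, 5540 and 4564 UMIs. Another 149 mature neurons had 1 or 2 Nqo1 UMIs and were put in neither class. Across libraries, 91 cell barcodes occurred more than once, 68 of them in the P0 and P3 libraries, and 7 members carried such a barcode. At least 3 UMIs from marker lists of non-neuronal cells were found in 60 members (10, 15, 7 and 28). The 6 stromal markers summed to 43.9, 394, 41.9 and 30.5 counts per 1000000 UMIs (CPM) in members, so the P3 members stood apart. The 6 leukocyte markers summed to 4.39, 54.0, 3.35 and 6.19 CPM, and the 4 basal cell markers to at most 18.0 CPM in any library. The part of these transcripts in the results was not tested, other than by leaving those 60 cells out.

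Members were a larger share of the mature neurons at P21 than at P0. They made up 33.7% of the mature neurons in the P0 library, with a 95% exact binomial interval of 28.1 to 39.6%. The P3 library had 44.2% (37.8 to 50.7%), the P7 library 42.5% (36.6 to 48.5%) and the P21 library 58.4% (54.6 to 62.1%). Only the P21 interval lay apart from the other 3. Each cell was also thinned to 2000 UMIs and a gate set on the thinned cell, with lower cuts on the Omp and Gap43 counts. Then 443, 371, 336 and 744 cells counted as mature neurons, and the member shares were 53.0%, 56.6%, 54.5% and 65.1%. The gap between P21 and P0 was 12 percentage points in place of 24.7. With this gate the P21 interval (61.5 to 68.5%) met that of P3 (51.4 to 61.7%). As the cuts changed along with depth, the part of depth alone was not tested. Of all cells within the limits, members were 4.13%, 3.64%, 8.07% and 33.3%. The unknown sort gate can set these shares.

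The first comparison asks whether cells without Nqo1 carry the other marks of ventral neurons. They did: of the 6 genes listed for the ventral zone, 4 could be tested and all 4 were higher in members than in Nqo1-high neurons of the same libraries, against 2.20% higher and 2.33% lower calls among all 6959 genes tested. Here and below, a gene is called at an adjusted p under 0.05 from edgeR's quasi-likelihood test on summed UMIs, with both sums of each library paired, and CPM is taken over the UMIs of the genes in the comparison. Ncam2 stood at 72.6, 70.5, 104 and 64.4 CPM in members at P0, P3, P7 and P21, against 2.95, 5.97, 16.7 and 9.52 CPM in Nqo1-high neurons. The lowest member value was above the highest value of Nqo1-high neurons, a fold of 8.19 (log2 3.03, SE 0.24, adjusted p = 1.1e-16). Nfix, a nuclear factor I transcription factor, had 346, 306, 465 and 507 CPM in members and 42.8, 73.1, 100 and 69.5 CPM in Nqo1-high neurons, again without overlap (fold 5.68, adjusted p = 1.2e-30). Its relative Nfib had 46.2, 65.1, 60.6 and 80.5 CPM in members and 14.8, 7.46, 13.9 and 3.81 CPM in Nqo1-high neurons (fold 6.83, adjusted p = 1.6e-13).

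Nrp2 was also higher in members, although its level varied most between libraries. It stood at 22.0, 86.8, 79.1 and 53.0 CPM in members, against 11.8, 11.9, 11.1 and 7.62 CPM in Nqo1-high neurons (fold 5.60, adjusted p = 3.6e-12). The P0 level rested on 10 UMIs, and at P0 the intervals of both classes met. Nrp2 does not mark these neurons alone: cells with at least 10 UMIs of collagen and keratin markers and at most 2 of Omp and of Gap43 held 81.0, 141, 208 and 74.9 CPM, whereas Ncam2 was at 2.31, 1.96, 3.65 and 0 CPM in them. In the dorsal direction, 2 of the 3 tested genes of the list were lower in members. Acsm4, an acyl-CoA synthetase, had 83.7, 105, 133 and 64.4 CPM in members and 1077, 931, 929 and 894 CPM in Nqo1-high neurons (fold 0.0923, log2 -3.44, SE 0.09, adjusted p = 5.0e-42). The non-neuronal cells held 50.9, 27.4, 79.1 and 196 CPM of Acsm4, which is below the members' level at P0, P3 and P7 and above it at P21. Robo2, an axon guidance receptor, was at 33.0, 61.5, 67.3 and 57.2 CPM in members and 76.7, 73.1, 98.6 and 102 CPM in Nqo1-high neurons (fold 0.599, adjusted p = 1.9e-04).

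Cell by cell, a UMI of Ncam2 or Nrp2 was seen in 44.2% of members (40.2 to 49.1% by library), so the label could not be seen in each. An Ncam2 UMI was found in 28.2% of members and in 1.31 to 4.76% of Nqo1-high neurons by library. An Nrp2 UMI was found in 21.5% of members, and both genes together in 5.49%. At least 1 UMI of Ncam2, Nrp2 or Nfix was present in 84.6% of members (77.4 to 87.8% by library), and Nfix alone in 77.3%. In thinned cells, 39.7 to 62.3% of members and 87.2 to 90.2% of Nqo1-high neurons by library had no Nfix UMI. At least 2 Acsm4 UMIs were present in 54 members (7.61%), with 14.2% at P3 and 4.83% at P21. Only 8 members held both 2 or more Acsm4 UMIs and an Ncam2 UMI.

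**Figure D1:**
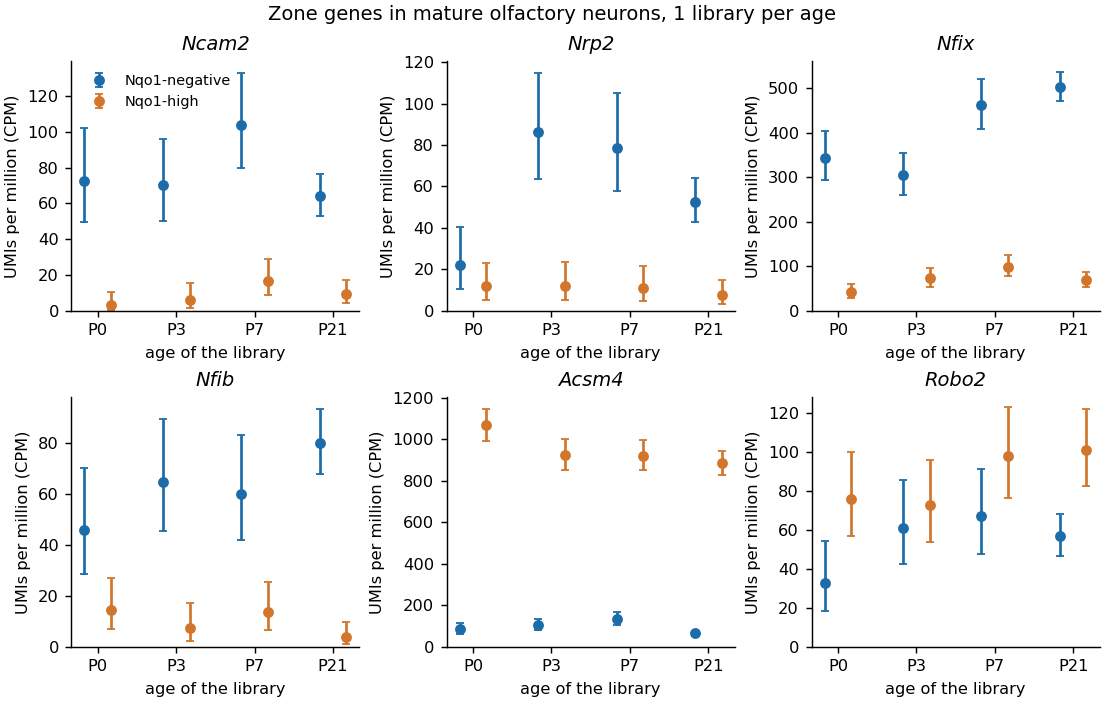
Levels of 6 zone genes in CPM (vertical axes) in Nqo1-negative and Nqo1-high mature neurons of each library, where points are summed cells and bars 95% exact Poisson intervals. Ncam2, Nfix and Nfib are higher and Acsm4 lower in Nqo1-negative neurons of each of the 4 libraries without overlap of the intervals, while the Nrp2 intervals meet at P0 and those of Robo2 at P3 and P7.

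Over all genes, those of the zone lists included, the test called 153 higher and 162 lower in members. Of 8 receptor genes tested, 1 was higher (Olfr1372-ps1, log2 4.30) and 5 were lower (Olfr77, Olfr1030, Olfr1176, Olfr653 and Olfr16, log2 -9.30 to -7.48). These 8 are the ones of 1419 Olfr genes whose counts passed the filter. The called genes passed it largely through the class where they are high, so these receptor calls are no support for a difference between the classes. Among the 10 largest positive differences, receptor genes apart, were Aldh3b1, an aldehyde dehydrogenase, with 17.6, 21.7, 26.9 and 34.8 CPM in members and 2.95, 1.49, 0 and 1.90 CPM in Nqo1-high neurons (adjusted p = 4.4e-10), and Slc16a7, a monocarboxylate transporter (fold 5.72, adjusted p = 2.7e-06). Meis3, a homeobox factor (fold 4.87), Apaf1, the adaptor of the apoptosome (fold 4.83), and Sytl1, a vesicle trafficking protein (fold 4.20), were also higher in members. Genes were named here only when 4 of 4 libraries had the same direction. Among the 10 lowest in members, receptor genes apart, were Nob1, a ribosome assembly factor, with 17.6, 34.4, 11.8 and 16.6 CPM against 84.1, 83.6, 90.3 and 107 CPM in Nqo1-high neurons (adjusted p = 4.7e-16), Socs2, a brake on cytokine signalling (fold 0.287, adjusted p = 8.4e-22), and the phosphatase gene Dusp26 (fold 0.294, adjusted p = 2.9e-16). Leaving out the P21 library, the largest, lowered the number of calls to 145, and DESeq2 called 74.

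Genes of the activity list split in direction. S100a5, a calcium-binding protein, had 17683, 18359, 18259 and 17746 CPM in members and 9131, 11699, 10584 and 12543 CPM in Nqo1-high neurons (fold 1.61, adjusted p = 6.6e-14). Pcp4l1, a small protein related to the calmodulin regulator Pcp4, was at 1140, 1096, 1644 and 1853 CPM in members and 670, 783, 1033 and 1387 CPM in Nqo1-high neurons (fold 1.45, adjusted p = 3.4e-10). Kirrel2, an adhesion molecule of like-axon sorting, was higher as well (fold 1.79, adjusted p = 1.7e-12). Its relative Kirrel3 was lower, at 26.4, 52.4, 18.5 and 65.0 CPM in members and 84.1, 76.1, 72.2 and 113 CPM in Nqo1-high neurons (adjusted p = 7.7e-07). Calb2, the calcium-binding protein calretinin, was lower in members, at 442, 700, 601 and 604 CPM against 1405, 1685, 1638 and 1176 CPM (fold 0.398, adjusted p = 8.5e-26), and so was the neuropeptide gene Cartpt (fold 0.484, adjusted p = 1.6e-18). The axon guidance receptor Epha5 was higher (fold 1.47) and the ligands Efna3 (fold 0.690) and Efna5 (fold 0.704) were lower.

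Of the other lists, transduction genes went both ways and genes of growth cones and neurites were called in 1 direction. Of 19 odour transduction genes tested, 4 were higher (Gnas, Pde1c, Pde4a and Umodl1) and 2 lower (Calm2 and Cnga2), and the median log2 difference was -0.04, against -0.00 over all genes tested. None of the 19 oxidative phosphorylation genes was called (median -0.05). Among 18 genes of growth cones and neurites, 6 were lower in members, namely Tubb2a, Tubb2b, Crmp1, Stmn1, Stmn2 and Tuba1a, and 0 higher. One stromal gene, Apod, was called higher, and it had 163 CPM in the P3 members and 16.8 to 26.5 CPM in those of the other 3 libraries.

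The receptor repertoire, which the gate did not use, was compared between the classes as well. A cell was assigned a leading receptor when 1 Olfr gene had at least 3 UMIs and at least 80% of the cell's Olfr UMIs. This held for 588 of 710 members (82.8%), led by 349 different receptor genes, 209 of which led a single member. The Nqo1-high neurons were led by 276 receptors, and 30 receptors led cells of both classes, which is 8.60% of the receptors of members and 10.9% of those of Nqo1-high neurons. Among 117 receptors that led at least 3 cells of the 2 classes, 51 led members alone, 50 led Nqo1-high neurons alone and 16 led both. The counts hold 1419 Olfr genes and most receptors led few cells, so some lack of overlap is given by sampling. The overlap that sampling alone would leave was not computed.

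Class I receptors, the fish-like family encoded in 1 cluster on chromosome 7 and known for dorsal expression, were rare as leading receptors. They led 6 of 584 members whose receptor has a position (1.03%, exact interval 0.378 to 2.22%), against 88 of 512 Nqo1-high neurons (17.2%, 14.0 to 20.7%). By library the shares were 0%, 0%, 5.21% and 0.299% in members and 18.5%, 13.8%, 25.7% and 13.2% in Nqo1-high neurons, lower in members in 4 of 4 libraries. The counts of 0 among 74 members at P0 and 80 at P3 allow shares of up to 4.05% and 3.75%. Of the 6 members, 5 were P7 cells, 3 of them led by Olfr78. Trace amine receptors (Taar), a separate small family of dorsal neurons, reached at least 3 UMIs in 9 members (1.27%) and in 0 of 607 Nqo1-high neurons, which allows up to 0.494%. They reached it in 5 of the 149 neurons with 1 or 2 Nqo1 UMIs. A few neurons with receptors known from the dorsal zone are thus among the members.

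Receptors of chromosome 2 led 33.7% of members and 22.7% of Nqo1-high neurons, and receptors of chromosome 9 led 5.14% of members and 18.2% of Nqo1-high neurons. Of all Olfr genes with a position, 26.2% lie on chromosome 2 and 12.2% on chromosome 9. The receptors that led most members were Olfr536 (chromosome 7, 140500849 to 140507396 on the minus strand, mm10), with 13 cells, Olfr1301 (chromosome 2, 111751006 to 111758852), with 8, and Olfr827 (chromosome 10, 130203049 to 130214403), with 7. None of these 3 led an Nqo1-high neuron. Olfr536 is a class II receptor outside the class I cluster.

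Members differed widely among themselves in S100a5. To compare cells at equal depth, each was thinned to 2000 UMIs. At P0, P3, P7 and P21, S100a5 then had medians of 20, 6, 12 and 17 UMIs per cell and maxima of 164, 267, 290 and 290 UMIs, while 18.5%, 23.6%, 28.6% and 15.8% of members had 0. At least 10 UMIs were found in 63.0%, 40.6%, 52.1% and 59.3% of members, and 0 to 2 UMIs in 25%, 40.6%, 38.7% and 29.0%. In Nqo1-high neurons the medians were 1, 1, 1 and 6 UMIs. The variance of the thinned S100a5 count was 48.0, 95.3, 77.8 and 57.5 times its mean in members, where counting alone gives a ratio near 1.

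Pcp4l1 went with S100a5 and Calb2 against it in each library. Among members with 10 or more S100a5 UMIs in the thinned cell, 77.6%, 81.4%, 82.3% and 93.1% also held a Pcp4l1 UMI at P0, P3, P7 and P21, against 4.35%, 4.65%, 13.0% and 12.3% of members with 0 to 2. Calb2 ran the other way, with a UMI in 15.5%, 18.6%, 12.9% and 6.87% of members with 10 or more S100a5 UMIs and in 73.9%, 72.1%, 76.1% and 68.4% of those with 0 to 2. The intervals of these pairs do not meet in any of the 4 libraries. Median depth before thinning was 5362, 4536, 4750 and 4779 UMIs in the high class and 4354, 3642, 4233 and 5050 in the low class.

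**Figure D2:**
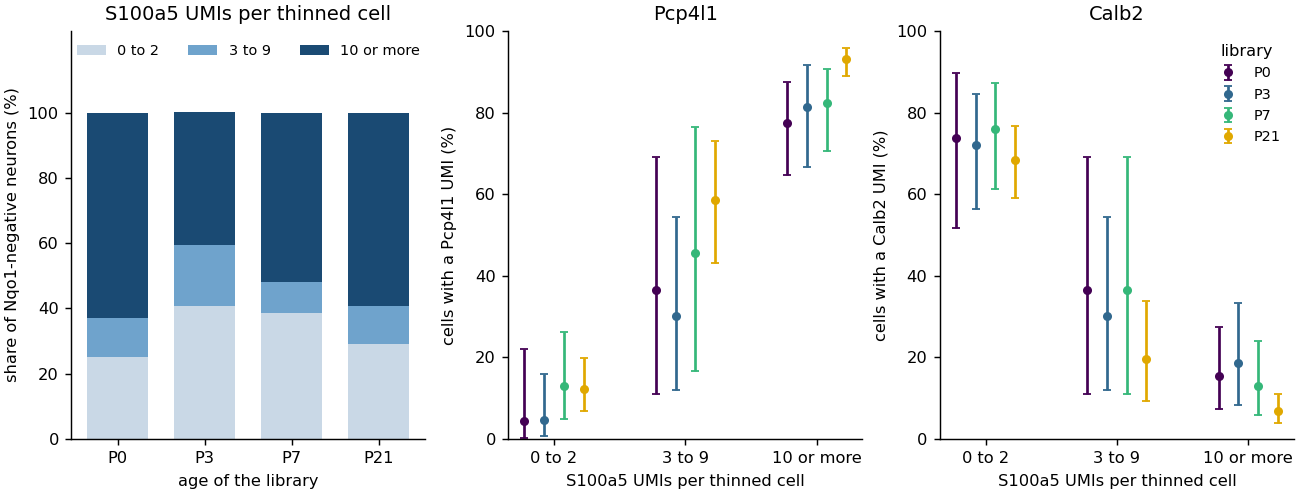
Left, the share of Nqo1-negative neurons (%) with 0 to 2, 3 to 9 and 10 or more S100a5 UMIs after thinning each cell to 2000 UMIs, by library. Middle and right, the share of cells (%) with a Pcp4l1 or a Calb2 UMI in each S100a5 class, with 95% exact binomial intervals: Pcp4l1 climbs to 77.6 to 93.1% and Calb2 drops to 6.87 to 18.6% in the class with 10 or more.

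The sequences just before the starts of S100a5 and Pcp4l1, the genes that lead this variation, are shown because their levels move together across members. Each window is the 250 bases before the RefSeq start on GRCm38.p6, S100a5 from chr3:90608272-90608521 on the plus strand and Pcp4l1 from chr1:171196269-171196518 on the minus strand, read 5′ to 3′ in the direction of the gene.
S100a5: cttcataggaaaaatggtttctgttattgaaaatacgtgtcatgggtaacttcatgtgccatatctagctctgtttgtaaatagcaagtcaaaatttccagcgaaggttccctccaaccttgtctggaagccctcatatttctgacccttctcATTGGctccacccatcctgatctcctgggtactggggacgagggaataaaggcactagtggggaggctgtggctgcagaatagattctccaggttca
Pcp4l1: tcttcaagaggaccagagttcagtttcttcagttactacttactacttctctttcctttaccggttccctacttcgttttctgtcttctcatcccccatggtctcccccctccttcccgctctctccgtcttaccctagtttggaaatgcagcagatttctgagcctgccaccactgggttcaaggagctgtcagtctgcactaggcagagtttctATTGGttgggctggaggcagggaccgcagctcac
Capitals mark the CCAAT box (CCAAT on either strand, here read as ATTGG), found once in each window and in 33.8% of 32851 promoter windows of the same length. It was searched for only after both windows had been read. The Olf-1/EBF motif, the cyclic AMP response element TGACGTCA and the full nuclear factor I motif, searched first and on both strands, were found in neither window, and 0.779%, 1.55% and 0.0365% of windows hold them. A match or its lack describes these letters alone.

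The second question is what else differs between members that are high and low in S100a5. Members above the median thinned S100a5 count of their library (45, 50, 58 and 196 cells) were set against those at or below it (47, 56, 61 and 197 cells). The test called 162 of 4368 genes higher (3.71%) and 128 lower (2.93%). Without the P21, P3 or P7 library it called 133, 166 or 169 genes in all, in place of 290, and DESeq2 called 73.

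Pcp4l1, S100a3 and Rasgrp4 had the largest positive differences in the S100a5-rich cells. Pcp4l1 had 1973, 2262, 2904 and 3327 CPM in members above the median and 309, 126, 275 and 365 CPM in the others, without overlap (fold 9.97, log2 3.32, SE 0.10, adjusted p = 1.9e-27). S100a3, a neighbour of S100a5 in the same gene family, had 153, 79.5, 113 and 65.0 CPM above the median and 13.6, 6.81, 3.62 and 6.42 CPM at or below it (fold 12.2, adjusted p = 5.7e-12). Rasgrp4, an exchange factor that activates Ras, reached a fold of 13.6 (adjusted p = 1.9e-11) from 70.2, 95.4, 54.8 and 87.7 CPM above the median and 13.6, 6.81, 3.62 and 4.28 CPM at or below it. Each of these 3 genes was higher in the S100a5-rich cells in 4 of 4 libraries, which the rule for naming genes required.

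Ntf3, the neurotrophin NT-3, had 43.9, 83.5, 77.4 and 68.1 CPM above the median and 13.6, 17, 14.5 and 17.1 CPM at or below it (fold 4.28, adjusted p = 2.5e-07). Lrrc3b, a leucine-rich repeat membrane protein, was at 395, 179, 532 and 766 CPM above the median and 127, 54.5, 112 and 187 CPM at or below it (fold 4.01, adjusted p = 4.7e-16). Pcdh10, an adhesion protein of the delta-protocadherin family, was higher (fold 4.14, adjusted p = 5.1e-07), but at P3 it had 39.8 CPM above the median and 27.2 CPM at or below it. Kirrel2 (fold 2.14, adjusted p = 2.3e-08) and Epha5 (fold 2.44, adjusted p = 4.5e-11) were higher too. Ppa1, a pyrophosphatase (fold 3.04), Rgs7, a regulator of G protein signalling (fold 3.10), and Syngr1, a synaptic vesicle protein (fold 2.74), complete the higher genes with S100a6 (fold 3.16), which lost its call under DESeq2 (adjusted p = 0.136).

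The opposite pole was led by Calb2. It had 70.2, 139, 58.0 and 43.3 CPM in members above the S100a5 median and 841, 1198, 1227 and 1199 CPM in those at or below it, without overlap (fold 0.0589, log2 -4.08, SE 0.15, adjusted p = 9.9e-25). Rims3, a presynaptic active zone protein, had 17.5, 55.7, 35.5 and 15.5 CPM above the median and 63.6, 153, 199 and 77.1 CPM at or below it (fold 0.241, adjusted p = 2.5e-09). Efna5, a repulsive ligand of Eph receptors, had 92.1, 103, 93.5 and 95.9 CPM above the median and 177, 272, 351 and 222 CPM at or below it (fold 0.396, adjusted p = 2.5e-09). Its receptor partner Epha5 thus lay at the other pole.

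Kirrel3 (fold 0.398, adjusted p = 7.2e-05) and Efna3 (fold 0.543, adjusted p = 1.3e-09) were lower in the S100a5-rich cells, as were the protocadherin gene Pcdh11x (fold 0.390), the helix-loop-helix factor gene Hes6 (fold 0.371) and Gnas, the stimulatory G protein of immature neurons (fold 0.378). Mdk, the growth factor midkine, was lower over all libraries (fold 0.278, adjusted p = 0.00322), but its P3 and P7 values were close, at 51.7 and 6.45 CPM above the median and 57.9 and 7.24 CPM at or below it, and it lost its call without the P0 or the P21 library.

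**Figure D3:**
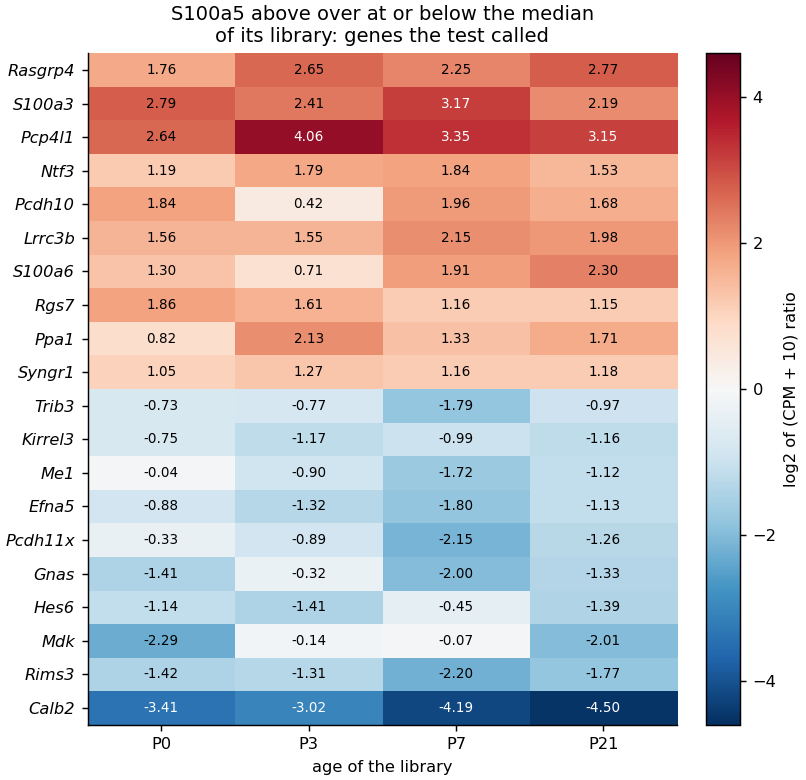
Log2 ratios of (CPM + 10) between Nqo1-negative neurons above and at or below the S100a5 median of their library, for 20 called genes, the 10 of largest and the 10 of smallest fitted fold change among genes other than receptors that had the same direction in 4 of 4 libraries. Positive values (red) are higher in S100a5-rich cells; Calb2 runs from -3.02 to -4.50 and Pcp4l1 from 2.64 to 4.06.

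By lists, 5 of 13 presynaptic genes were higher in the S100a5-rich cells and 0 lower. Among them were Syn1, Slc17a6, Snap25 and Rab3a, and the list's median log2 difference was 0.36, against -0.00 over all genes. Synaptic genes off the list went both ways, with Rims3 lower (fold 0.241) and Syngr1 higher (fold 2.74). Syn1, a synaptic vesicle phosphoprotein, had 39.5, 47.7, 41.9 and 51.6 CPM above the median and 36.4, 37.4, 25.3 and 8.57 CPM at or below it (fold 2.41, adjusted p = 0.00908), with the widest gap at P21. Of 19 oxidative phosphorylation genes, 9 were higher and 0 lower, with a median of 0.22; the called genes Ndufb8 (fold 1.27) and Cox4i1 (fold 1.14) span their range. Of 17 genes of growth cones and neurites, 7 were lower and 0 higher, with a median of -0.52. They were Marcksl1, Tubb2b, Stmn1, Dcx, Stmn2, Tuba1a and Gap43, and the last is no support, since the gate capped it.

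Within its cap of 2 UMIs per cell, Gap43 had 74.5, 71.6, 45.1 and 24.8 CPM in members above the S100a5 median and 164, 112, 119 and 51.4 CPM in the others, given as a description. Sox11, a transcription factor of immature neurons that the gate did not use, was lower in the S100a5-rich cells (fold 0.426, adjusted p = 8.4e-06). Of 6 immature neuron markers tested, 2 were lower, Stmn2 and the capped Gap43, and 0 higher; the part of immaturity in the split was not tested. Of 3 receptor genes tested, Olfr536 was higher (log2 1.86, adjusted p = 7.0e-06) and Olfr1301 lower (log2 -3.31, adjusted p = 2.2e-11) in the S100a5-rich cells. Olfr536 led 13 members and Olfr1301 led 8, so both calls rest on few cells. None of the 3 dorsal and 4 ventral zone genes was called. Nrp2 was lower in the S100a5-rich cells in 4 of 4 libraries, at 8.77, 87.5, 51.6 and 44.4 CPM above the median and 36.4, 88.5, 112 and 63.2 CPM at or below it (fold 0.672, unadjusted p = 0.0106, adjusted p = 0.113 by edgeR), and the split by Nrp2 described below did call S100a5. Ncam2 stood at 57.0, 51.7, 129 and 72.2 CPM above the median and 90.9, 88.5, 79.6 and 57.8 CPM at or below it.

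Splitting the same cells by Pcp4l1 gave 177 genes higher (3.99% of 4441) and 138 lower (3.11%), and 149 and 182 calls in all, in place of 315, without the P21 and the P3 library. DESeq2 called 90. As both splits use the same cells, the Pcp4l1 split is no independent support. S100a5 had 30818, 39075, 33973 and 33201 CPM in members above the Pcp4l1 median and 6582, 2297, 3927 and 4220 CPM in the others (fold 8.94, adjusted p = 4.2e-26). Calb2 had 135, 149, 67.1 and 29.0 CPM above the median and 698, 1120, 1079 and 1095 CPM at or below it (fold 0.0734, adjusted p = 5.5e-23). The largest fold was that of Dlg2.1, a second table row beside the synaptic scaffold gene Dlg2, with 144, 443, 865 and 841 CPM above the median and 28.2, 22.3, 57.5 and 78.1 CPM at or below it (fold 12.4, adjusted p = 8.5e-27). The table gives no identifier that tells the rows apart, so which transcript this one counts is uncertain. Its P7 value above the median leaned on 1 cell, which held 44 UMIs after thinning against a mean of 0.655 over the P7 members.

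Some genes were named for the Pcp4l1 split alone, though the difference between the splits was not tested. Nrp1, the neuropilin whose level is known to follow cyclic AMP signals from the receptor, had 43.3, 66.3, 56.5 and 61.3 CPM above the Pcp4l1 median and 24.2, 51.0, 22.3 and 28.9 CPM at or below it (fold 2.0, adjusted p = 0.0040). Cartpt had 2108, 1570, 1967 and 960 CPM above the median and 5339, 4737, 2027 and 1446 CPM at or below it (fold 0.568, adjusted p = 6.5e-07), close only at P7. In thinned members its largest counts were 102 UMIs at P0 and 112 at P3, against medians of 4 and 3, so the sums there lean on few cells. In the S100a5 split, Cartpt was level at P0, with 3929 CPM above the median and 3932 CPM at or below it, and was not called. Car2, carbonic anhydrase, was higher (fold 1.84, adjusted p = 2.5e-06). Olig2, a helix-loop-helix factor, was lower, at 24.1, 29.0, 31.8 and 36.8 CPM above the median and 105, 63.8, 76.6 and 103 CPM at or below it (fold 0.377, adjusted p = 2.7e-06). Of 14 presynaptic genes 7 were higher, of 19 oxidative phosphorylation genes 7 were higher, and 0 of either list were lower. The presynaptic gene Rims3, which is off the list, was lower (fold 0.234).

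Few other genes were called in the splits by Nrp2 and Ncam2, the zone markers, where the test also finds less. In simulated data it recovered 74.5% of 3-fold changes for the Nrp2 split and 77% for the Ncam2 split. For the Pcp4l1 and S100a5 splits it recovered 93.5% and 97%. A Nrp2 UMI in the thinned cell put 6, 20, 19 and 43 members above the median of 0, and the test called 2 genes higher (0.0414% of 4830) and 3 lower (0.0621%). Calb2 had 1590, 738, 1293 and 1286 CPM in Nrp2-positive members and 374, 688, 476 and 516 CPM in the others (fold 2.17, adjusted p = 1.3e-04), with a small gap at P3. S100a5 had 11330, 6478, 8340 and 11577 CPM in Nrp2-positive members and 17982, 20668, 19883 and 18367 CPM in the others, without overlap (fold 0.452, adjusted p = 6.3e-05). Pcp4l1 (fold 0.510, adjusted p = 6.3e-05) and Ppa1 (fold 0.475, adjusted p = 1.7e-04) were lower as well, and Smarcd2, a chromatin remodelling subunit, was higher (fold 3.06, adjusted p = 0.0418). Calb2 and Ppa1 lost their calls without the P21 library, Ppa1 also without the P3 library and S100a5 without the P7 library; Smarcd2 lost its call without the P0, P3 or P7 library. In all, 3 genes were called without the P3 library and 11 without the P21 library. Ncam2 itself did not differ detectably with Nrp2 (fold 0.941, adjusted p = 0.999).

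An Ncam2 UMI in the thinned cell was present in 15, 17, 19 and 46 members. One gene was called higher (0.0218% of 4578), the receptor Olfr1301 (log2 3.54, adjusted p = 3.0e-05), named because it was the one call, and 0 were lower. Olfr1301 led 8 members, so the call rests on few cells. At an unadjusted p under 0.05 there were 189 genes, and DESeq2 called 0. Without the P0, P3 or P21 library edgeR called 7, 5 or 3 genes. S100a5 had 17752, 20002, 20691 and 18074 CPM in Ncam2-positive members and 17589, 17991, 17721 and 17565 CPM in the others (fold 1.07, adjusted p = 1). Acsm4 was at 54.0, 50.5, 56.1 and 21.6 CPM in Ncam2-positive members and 89.0, 113, 146 and 69.8 CPM in the others, lower in 4 of 4 libraries but not called (fold 0.402, adjusted p = 0.153). Both genes were found at 0 in most thinned cells, so these splits put many cells with either transcript on the low side.

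The S100a5 and Calb2 levels of a neuron went in part with its receptor. Over the 55 receptors that led at least 3 members (209 cells, library means removed), the share of the variance of log2(CPM + 100) that lay between receptors was 0.66 for S100a5 and 0.75 for Pcp4l1. It was 0.45 for Cartpt, 0.38 for Calb2, 0.27 for Kirrel2, 0.24 for Epha5 and 0.19 for Nfix. For Omp, which the gate used, it was 0.12. These are descriptions, since cells of a receptor share libraries. The 5 cells led by Olfr1240 had 20779 to 54264 CPM of S100a5 and 0 Calb2 UMIs. The 13 cells led by Olfr536 had 3752 to 33925 CPM of S100a5, and a Calb2 UMI was found in 5 of them. The 5 cells led by Olfr1271 had 6415 to 16943 CPM of S100a5, and 2 of them held Calb2.

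At the other end, the 7 cells led by Olfr827 had 0 to 1005 CPM of S100a5 with a median of 0, and 6 of them held Calb2, at 1339 CPM over their summed UMIs. The 5 cells led by Olfr55 had 0 to 645 CPM of S100a5 and 645 to 3695 CPM of Calb2. The 5 cells led by Olfr728 had 0 to 510 CPM of S100a5 and 1049 to 2296 CPM of Calb2. The 8 cells led by Olfr1301 lay between, with a median of 1433 CPM of S100a5 and a Calb2 UMI in 2 of them. Some receptors had cells at both ends. A P7 cell led by Olfr332 had 0 CPM of S100a5 and 2827.5 of Calb2, and a P21 cell 10164.6 and 143.2 CPM. For Olfr1238, a P21 cell had 366.3 CPM of S100a5 and 3175.0 of Calb2, and another 10552.1 and 0 CPM.

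Receptor groups were then compared between the earlier libraries and P21. Over the 69 receptors that led both a member at P0, P3 or P7 and a member at P21, the mean log2 level in the earlier cells and in the P21 cells had a Pearson's r of 0.64 for S100a5 (Spearman's rho 0.65), 0.66 for Pcp4l1 (0.66), 0.46 for Calb2 (0.45) and 0.34 for Kirrel2 (0.33). For Omp, which the gate used, r was 0.2 (rho 0.21). The points are receptors, not samples, most with 1 cell at an age, and they share the 4 libraries. Counting error weighs more on sparse genes here too, so the correlations do not rank the genes.

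**Figure D4:**
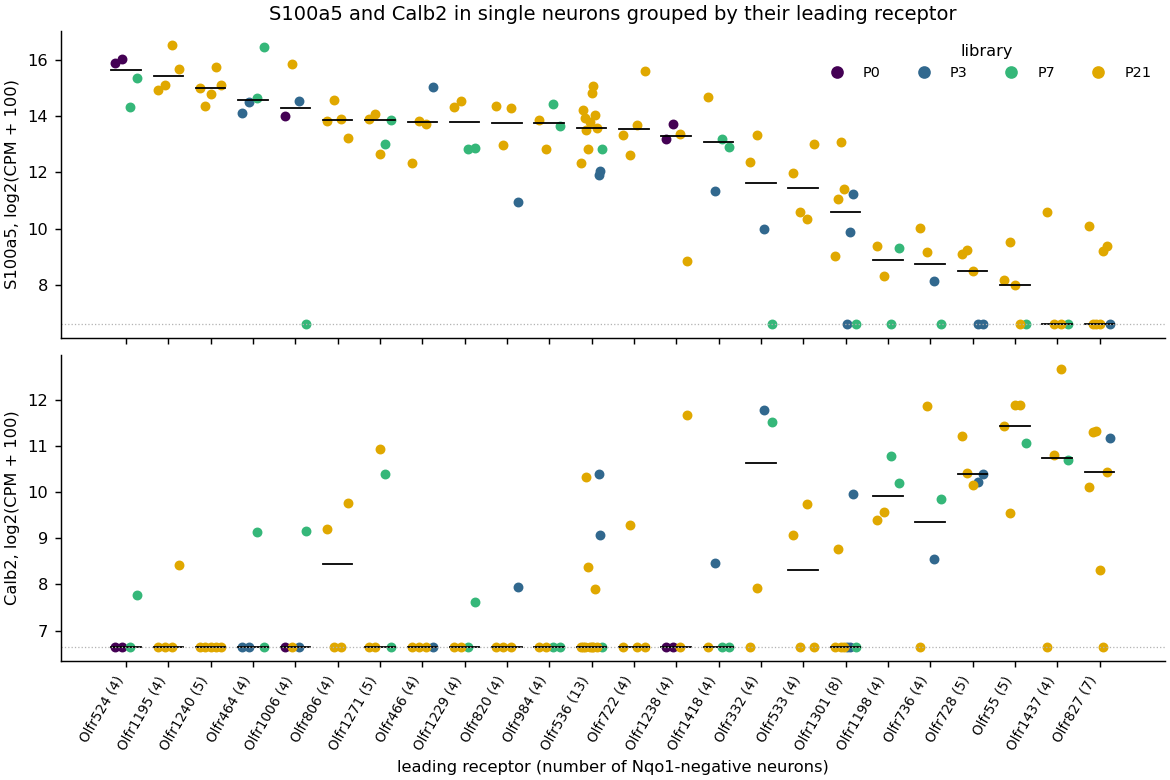
S100a5 (top) and Calb2 (bottom) in single Nqo1-negative neurons as log2(CPM + 100), for the receptors that led at least 4 members, ordered by their median S100a5 level. Points are cells coloured by library, short lines are medians and the dotted line marks 0 UMIs; receptors with high S100a5, such as Olfr1240, have most cells at 0 Calb2, while Olfr827, Olfr55 and Olfr728 show the reverse.

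Between P21 and P0, 13 of 19 oxidative phosphorylation genes were at least 1.5-fold lower in members and 0 were as much higher, while the summed level of S100a5 was flat. Its thinned medians per cell (20, 6, 12 and 17 UMIs, in order of age) were not level, and no test between ages is possible with 1 library each. Changes are log2 ratios of (CPM + 10) of P21 over P0 in summed members. The summed members gave values for 5915 genes, of which 151 (2.55%) reached a 2-fold excess at P21 and 112 (1.89%) a 2-fold deficit. At 1.5-fold, 11.6% were higher and 9.16% lower, and the median change of all measured genes was 0.04. S100a5 stood at 17614, 18277, 18162 and 17625 CPM at P0, P3, P7 and P21, a log2 change of 0.00. Pcp4l1 was at 1136, 1091, 1636 and 1840 CPM (P21 over P0 ratio 1.62, counting interval 1.48 to 1.78). Omp, which the gate used, was at 3789, 4394, 5242 and 6827 CPM.

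Of the 18 measured odour transduction genes, 5 were at least 1.5-fold higher at P21 than at P0 and 1 lower, with a list median of 0.31. Cnga4, a subunit of the cyclic nucleotide-gated channel that carries the odour response, was at 208, 254, 298 and 658 CPM (ratio 3.16, 2.56 to 3.93). The other subunits Cngb1 (54.8, 110, 121 and 132 CPM) and Cnga2 (699, 682, 817 and 1289 CPM) were also higher at P21. Stoml3, a stomatin of the olfactory cilia, was at 6010, 4207, 6755 and 11282 CPM (ratio 1.88, 1.80 to 1.95). Gnas was lower, at 54.8, 90.0, 36.8 and 19.6 CPM, while Gnal, the olfactory G protein that takes its place in mature neurons, was at 1305, 1617, 1987 and 1937 CPM. Against P7 in place of P0, the list's median was -0.04.

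Of the 10 measured activity-dependent genes, 5 were at least 1.5-fold higher at P21 and 1 lower (median 0.61), but the median was 0.18 against P3 and 0.13 against P7. Kirrel2 was at 250, 227, 321 and 680 CPM (ratio 2.72, 2.24 to 3.32), with the P21 level above the other 3. Kirrel3 was at 26.3, 52.2, 18.4 and 64.5 CPM, so both relatives were highest at P21. Lrrc3b was at 259, 110, 328 and 474 CPM. Cartpt was lower at each step, at 3861, 3355, 1996 and 1219 CPM (ratio 0.316, 0.297 to 0.336). Its thinned counts per cell had medians of 4, 3, 3 and 1 UMIs and maxima of 102, 112, 35 and 15, so the P0 and P3 sums lean on few cells. In Nqo1-high neurons Cartpt stood at 5995, 5329, 4268 and 3727 CPM.

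Among 23 measured axon guidance and adhesion genes, 9 were at least 1.5-fold higher at P21 than at P0 and 0 lower (median 0.30), but several were higher still at P3 or P7. Efna3 was at 340, 661, 844 and 702 CPM and Nrp2 at 21.9, 86.4, 78.7 and 52.6 CPM, so their lowest value was at P0. Epha7, an Eph receptor, was at 26.3, 27.0, 28.5 and 79.5 CPM (ratio 3.02, 1.68 to 5.97), and here P21 stood apart. Ncam2 was at 72.4, 70.2, 104 and 64.0 CPM with P21 and P0 counting intervals that meet. With P3 or P7 as the earlier library, the median of the list was -0.09 or -0.26, so its direction rests on the P0 library. The same held for the 14 presynaptic genes, with a median of 0.09 against P0, -0.21 against P3 and -0.19 against P7.

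Oxidative phosphorylation genes were lower at P21 than at P0. Of 19 genes, 13 were at least 1.5-fold lower and 0 higher, with a median of -0.76. Ndufa4, a subunit of the respiratory chain, was at 4131, 2342, 2265 and 2078 CPM, and Ndufa1 at 1026, 560, 484 and 445 CPM. Most of the step lay between P0 and P3: the list's median was -0.23 with P3 and -0.17 with P7 as the earlier library. In Nqo1-high neurons of the same libraries the median was -0.63, with 10 of 19 lower.

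Growth cone and neurite genes were lower at P21 against each earlier library, with medians of -0.47 against P0, -0.81 against P3 and -0.60 against P7. Of 18 measured, 8 were at least 1.5-fold lower than at P0 and 2 higher. The tubulin gene Tubb2b was at 235, 232, 127 and 74.3 CPM and Stmn2, a microtubule regulator, at 699, 711, 616 and 350 CPM. Gap43, which the gate capped and which counts among the 8, was at 116, 91.8, 78.7 and 37.2 CPM. Dpysl2 (129, 184, 171 and 211 CPM) and Crmp1 (6.58, 32.4, 38.5 and 36.1 CPM), both collapsin response mediators, were higher. The 9 markers of immature neurons, Gap43 among them, summed to 2585, 2862, 2479 and 1782 CPM in members, so the P21 members held the least, and the part of this in the age differences was not tested.

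**Figure D5:**
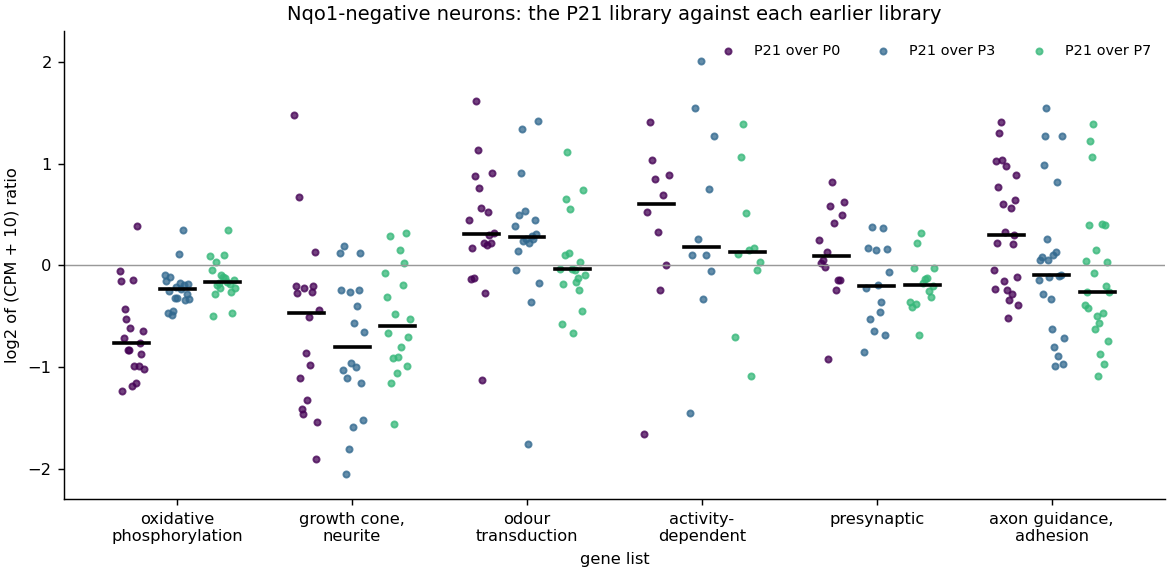
Log2 ratios of (CPM + 10) in Nqo1-negative neurons of the P21 library over each earlier library, for the measured genes of 6 lists, where points are genes and black bars list medians. Growth cone genes have medians of -0.47, -0.81 and -0.60 against P0, P3 and P7, and oxidative phosphorylation genes -0.76, -0.23 and -0.17.

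Single genes with the largest age differences were of mixed kinds. Gm10320, a predicted gene, had no UMI in P0 members, 2 in P3, 1 in P7 and 287 in P21 members, the last in 197 cells. Pth2, a relative of parathyroid hormone that acts as a neuropeptide, was at 41.7, 46.8, 63.6 and 201 CPM (ratio 4.83, 3.05 to 8.11), and in Nqo1-high neurons at 62.9, 25.2, 62.0 and 356 CPM. Bcl2, a survival factor that opposes apoptosis, was at 13.2, 23.4, 31.8 and 68.6 CPM (ratio 5.22, 2.33 to 14.5). Stxbp5l, a syntaxin-binding protein, was at 17.5, 34.2, 80.4 and 93.9 CPM. Avp, the vasopressin gene, was at 21.9, 3.60, 11.7 and 187 CPM, but 1 cell held 77.6% of its UMIs in the P21 members. Dlg2.1 (81.1, 205, 440 and 431 CPM), Erdr1 (15.3, 66.6, 85.4 and 111 CPM), Gm8730 and Cwc22 were high from P3 or P7 on, and Cwc22, a splicing factor, was at 15.3, 218, 172 and 94.4 CPM. The P7 level of Dlg2.1 leaned on 1 cell. After thinning, that cell held 44 UMIs, while the mean over the 119 P7 members was 0.655 and 79.8% of them had 0.

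Lower at P21 were Fam183b, a gene of motile cilia, at 452, 182, 137 and 56.8 CPM (ratio 0.126, 0.0988 to 0.159), and Ly6h, a modulator of nicotinic receptors, at 197, 203, 134 and 28.9 CPM. Crabp1, the cellular retinoic acid-binding protein, was at 61.4, 37.8, 13.4 and 3.10 CPM. Cnih2, an auxiliary subunit of AMPA receptors, was at 189, 131, 127 and 32.0 CPM, and Cebpb, a stress-responsive transcription factor, at 110, 41.4, 43.5 and 13.9 CPM. Dynlt1a (74.6, 7.20, 0 and 3.10 CPM) and Sec61g (143, 39.6, 25.1 and 28.4 CPM) set the P0 library apart from the other 3. Among the 24 genes with the largest differences in members, the difference had the same sign in Nqo1-high neurons for all but Avp, and the gap between the classes was not tested.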

How the data were processed

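The authors deposited 1 table of raw UMI counts (whole-number counts per gene and cell) for each of the 4 libraries; per the submitters' processing notes the tools were Cell Ranger 2.1.1 and Seurat and the build was mm10, and per the labels the libraries were Chromium 3' v2 libraries. Counts of this kind cover transcript ends, so levels are not compared between genes per length. Deposited UMIs totalled 9207027 for P0, 17770838 for P3, 8653791 for P7 and 6861044 for P21.

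From these counts, cells were gated as stated above and summed per library. Sums were tested with edgeR 4.0.16 (R 4.3.3; quasi-likelihood test, TMM, filterByExpr, Benjamini-Hochberg over all genes fitted) with library as a block, since both sums of a library share its cells' preparation; Omp, Gap43 and Nqo1 were left out of the sums of the Nqo1 comparison, and the split gene alone out of the sums of each split. The p-values measure the spread of 4 libraries, whose separate animals are not stated. DESeq2 1.42.0 was an alternative. The test was checked on simulated data. Ages were compared without a test, over genes with a mean of at least 20 CPM and 30 UMIs in all, with 10 CPM added before the log. Intervals are exact at 95% (binomial, Poisson or conditional binomial) and cover counting error only; the limit given for a count of 0 is 3 counts of the total. A doublet caller was not run; members with 3 or more non-neuronal marker UMIs were left out as an alternative. Genes named are 10 called genes of largest and 10 of smallest fitted fold in each comparison, receptor genes apart and with the same direction in 4 of 4 libraries, the 12 highest and 12 lowest by age with 5 more in each direction that moved one way at each step, and members of the gene lists. Members, lists and tests were chosen with earlier results of these data known. Receptor positions came from GENCODE M21 and promoters from RefSeq. Values were computed with Python 3.11.15, numpy 2.4.6, scipy 1.17.1 and pandas 2.3.3.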

Additional observations from a re-analysis of the deposited data

Results flagged for a closer look

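Of 87 groups of 4 library values examined, 1 held a library far from the others, and chance gives about 1 in 20. Acsm4, the dorsal zone gene, had a log2 ratio between members above and at or below the S100a5 median of 0.50 at P7, against -0.32 at P0, -0.35 at P3 and -0.41 at P21. The gap to the nearest value was 0.9 of the whole range. Acsm4 was not called in that split.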

How the results depend on the processing

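The excess of the member share at P21 over P0, 24.7 percentage points, was 12 points with the gate on cells thinned to 2000 UMIs. That thinned gate also had lower cuts on Omp and Gap43, so its values differ from the main ones in more than depth. Against 151 higher and 112 lower genes at P21 over P0, the counts were 329 and 210 with 1 CPM added, 249 and 172 with a mean of 5 CPM or more, and 376 and 177 with members thinned. With P3 as the earlier library 68 were higher, and with P7 39 were higher and 63 lower; the thinned gate gave 364 lower. List medians with P3 were 0.18 for activity-dependent, -0.09 for axon guidance, -0.81 for growth cone, -0.21 for presynaptic, -0.23 for oxidative phosphorylation and -0.14 for receptor choice genes. With P7 they were 0.13, -0.26, -0.60, -0.19, -0.17 and -0.21, and -0.04 for odour transduction. With the thinned gate they were 1.0 for activity-dependent, 0.90 for odour transduction, 0.58 for axon guidance, -0.88 for growth cone, 0.55 for presynaptic and -0.44 for oxidative phosphorylation. By gene, Cwc22 turned to -1.13 with P3 and -0.80 with P7, and with P7 Gm8730 stood at -0.00, Dlg2.1 at -0.03, Dynlt1a at 0.39 and Sec61g at 0.13. The cause was not tested.

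The Nqo1 comparison called 315 genes, against 74 with DESeq2, 871 with no filter on low counts and 143 with thinned members. The same settings gave 90, 652 and 127 in place of 315 for the Pcp4l1 split and 73, 591 and 122 in place of 290 for the S100a5 split. The Nrp2 split had 195 in place of 5 with no filter. The Ncam2 split had 0 in place of 1 with DESeq2, 190 with no filter, 3 without doublet candidates and 3 with thinned members. Fits without the replicate block, which ignore that paired sums share a library, called 40 for Nqo1, 0 for Nrp2, 0 for Ncam2, 23 for Pcp4l1 and 19 for S100a5. Leaving out 1 library gave 145 to 284 for Nqo1, 3 to 11 for Nrp2, 1 to 7 for Ncam2, 149 to 297 for Pcp4l1 and 133 to 228 for S100a5. Without cells of shared barcodes, an alternative chosen after seeing the data, the counts were 305, 4, 1, 308 and 290. Members were few at P0, and genes such as Nrp2 with 10 UMIs there limit what depth can show.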
